A study of Mus musculus with 16 samples.

Results

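The genes described here encode the alpha1 subunits of voltage-gated calcium channels, the large proteins that form the channel's pore. The members were the 8 genes Cacna1a, Cacna1b, Cacna1c, Cacna1d, Cacna1e, Cacna1g, Cacna1h and Cacna1i, chosen by symbol from the annotation of the arrays' transcript clusters (the sets of probes that stand for a gene). They are 8 of 30142 genes with a cluster naming a single gene. Each member had 1 such cluster, and all 8 were among the 20094 genes tested after the genes with the lowest mean levels were left out.

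Voltage-gated calcium channels open when the membrane depolarises and let calcium in. The alpha1 subunit sets the voltage range, the kinetics and the drug sensitivity of a channel, and auxiliary alpha2delta and beta subunits bring it to the membrane. P/Q-type (Cacna1a) and N-type (Cacna1b) channels trigger transmitter release, R-type channels (Cacna1e) act in dendrites and terminals, and L-type channels (Cacna1c, Cacna1d) couple activity to gene expression. T-type channels (Cacna1g, Cacna1h, Cacna1i) open near the resting potential and help cells to fire in bursts. In parvalbumin interneurons, the fast-spiking inhibitory cells of cortex and striatum, transmitter release rests mainly on P/Q-type channels.

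The study compared RNA of parvalbumin interneurons, sorted by tdTomato fluorescence, from dorsal striatum and from motor plus somatosensory cortex, in 2 mouse lines. The PV-tdTomato line (genotype PV-tdTomato/+) carried a parvalbumin reporter and no Cre, and the PVCre line (genotype PVCre/+; tdTomato/+) carried Cre recombinase under parvalbumin and a tdTomato allele. All mice were C57BL/6J, labelled male and aged 30 days. Each of the 16 arrays (4 for every pairing of a line with a region) measured 2000 cells pooled from 2 to 4 mice. Levels are log2 array intensities, so a difference of 1 is a 2-fold difference in intensity. Probes differ in strength, so levels are set side by side within a gene and not between genes.

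The labelled cell type was checked against its markers. Gad1, which makes the transmitter GABA, was high in 14 arrays (11.63 to 14.43) and was 8.88 and 7.40 in PVCre cortex replicates 2 and 4. Gad2 was 6.79 and 6.56 in those 2 arrays and 9.15 to 13.85 in the other 14. Pvalb was 6.69 to 8.40 in 6 arrays, namely PV-tdTomato replicates 3 and 4 of both regions and PVCre cortex replicates 2 and 4, and 10.20 to 12.48 in the other 10. Slc17a7, a marker of excitatory neurons, lay between 5.55 and 8.32. The mean of 7 of 8 oligodendrocyte markers lay between 12.32 and 14.99 over the arrays, high in every pool. The mean of 8 microglial markers was 5.39 to 5.87 in the PV-tdTomato arrays and 7.34 to 9.54 in the PVCre arrays. Xist, the RNA that silences an X chromosome in female cells, was 13.40 to 16.01 in 8 arrays (PV-tdTomato replicate 3 and PVCre replicates 1, 3 and 4 of both regions) and 5.71 to 6.56 in the other 8, although all were labelled male. Where a member's call changed without such arrays, both values are given.

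Promoter sequence was held in RefSeq (GRCm38.p6) for 5 of the 8 members: Cacna1b, Cacna1c, Cacna1d, Cacna1e and Cacna1i. Those of the 3 members with a single annotated start are shown, because all 3 genes were lower in PVCre striatum while their promoters differ in base composition. Each run is the 250 bases before the start, 5′ to 3′ on the gene's strand, with each GC box (GGGCGG, or CCGCCC on the other strand) in capitals.
Cacna1b: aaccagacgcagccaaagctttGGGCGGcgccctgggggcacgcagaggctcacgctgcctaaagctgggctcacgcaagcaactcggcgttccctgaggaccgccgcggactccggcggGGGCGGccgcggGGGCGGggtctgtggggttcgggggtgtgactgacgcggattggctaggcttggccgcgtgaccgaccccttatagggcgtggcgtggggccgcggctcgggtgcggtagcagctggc
Cacna1e: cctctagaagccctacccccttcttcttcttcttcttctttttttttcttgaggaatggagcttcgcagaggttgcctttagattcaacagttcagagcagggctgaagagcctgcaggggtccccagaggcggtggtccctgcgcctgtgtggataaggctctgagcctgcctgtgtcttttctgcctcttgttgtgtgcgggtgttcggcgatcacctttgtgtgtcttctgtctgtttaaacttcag
Cacna1i: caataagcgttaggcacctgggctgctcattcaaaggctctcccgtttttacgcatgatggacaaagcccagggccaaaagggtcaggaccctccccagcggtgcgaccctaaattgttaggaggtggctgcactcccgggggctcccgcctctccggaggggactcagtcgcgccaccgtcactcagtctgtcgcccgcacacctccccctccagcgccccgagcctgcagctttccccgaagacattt
The Cacna1b promoter lies at chr2:24763153-24763402 on the minus strand, is 72.0% G and C, and holds 29 CpG pairs and 3 GC boxes. The Cacna1e promoter lies at chr1:154725921-154726170 on the minus strand, is 52.0% G and C, and holds 6 CpG pairs and no GC box. The Cacna1i promoter lies at chr15:80286988-80287237 on the plus strand, is 62.4% G and C, and holds 16 CpG pairs and no GC box. The median over 32851 promoters was 52.4% G and C with 6 CpG pairs, so Cacna1e stood near the median and Cacna1b and Cacna1i above it. A GC box was present in 32.7% of all promoters. These matches describe the letters only.

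The lines were compared within each region. All 8 alpha1 genes had a lower mean in the PVCre line than in the PV-tdTomato line, in both regions. In striatum 7 of the 8 were lower by limma's test (adjusted p under 0.05), by 2.26 to 9.46-fold, and in cortex 7 of 8, by 2.44 to 8.59-fold. Lower levels were common among all genes, at 35.3% of those tested in striatum and 34.6% in cortex (18.1% and 19% were higher), so the count of members is to be read against that background. The members' median difference was -1.59 in striatum and -1.97 in cortex, where the median over all genes tested was -0.23 in each. In bulk pools, fewer cells of a type and less RNA per cell cannot be told apart, and the labels name no batch, so line and any batch confounded with it cannot be told apart.

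**Figure D1:**
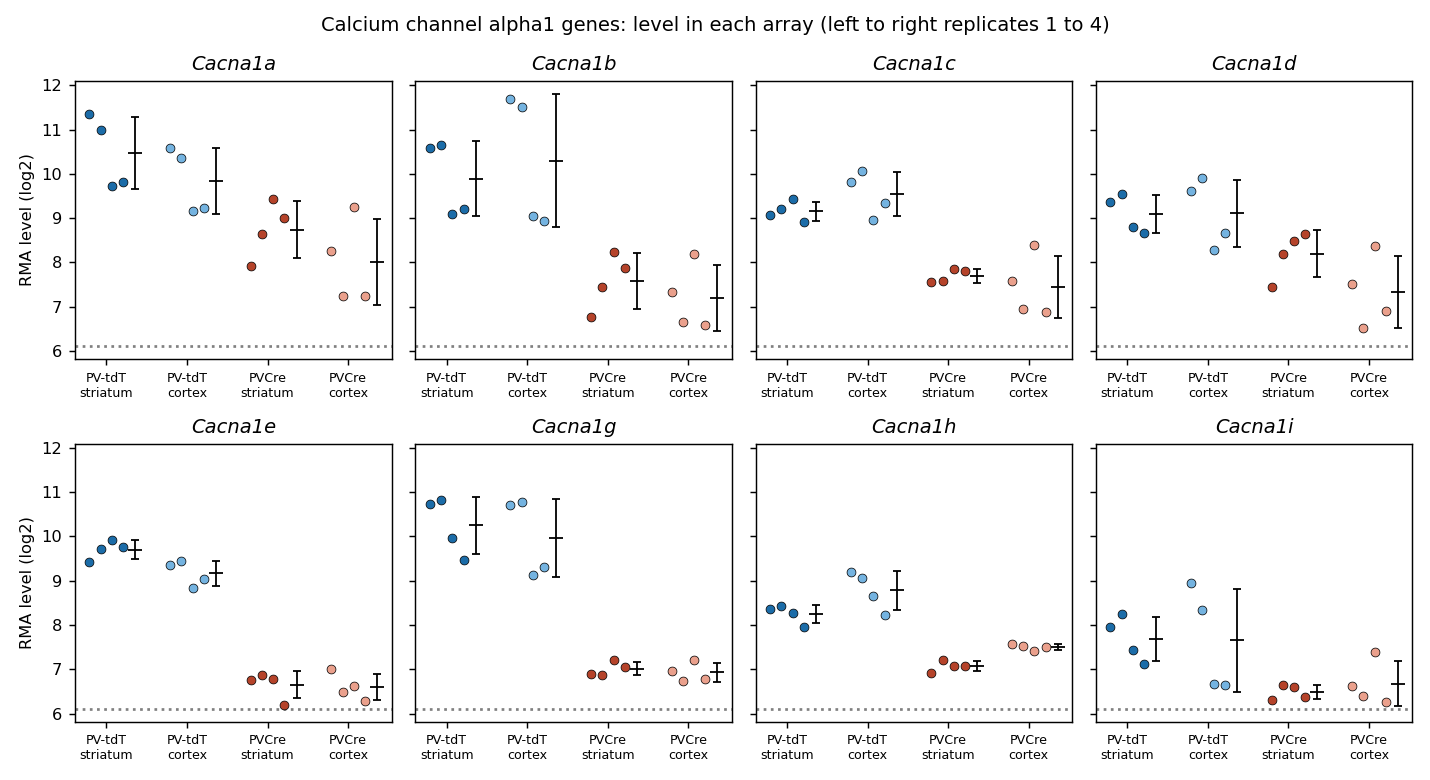
Log2 level (vertical axis) of the 8 alpha1 genes, 1 panel per gene, in the 4 groups of line and region (horizontal axis); points are arrays, replicates 1 to 4 from left to right, bars are mean ± SD (n = 4), and the dotted line marks the highest mean of the background probe sets (6.1). In every panel both PV-tdTomato means lie above both PVCre means. In every panel but those of Cacna1c and Cacna1e, PV-tdTomato replicates 3 and 4 lie below replicates 1 and 2 of the same region, least clearly for Cacna1h.

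Cacna1a encodes the pore of P/Q-type channels, the main release channel of fast-spiking terminals. In PV-tdTomato replicates 1 to 4 its level was 11.34, 10.99, 9.72 and 9.82 in striatum and 10.59, 10.35, 9.17 and 9.22 in cortex. In PVCre replicates 1 to 4 it was 7.91, 8.63, 9.42 and 9.0 in striatum and 8.25, 7.24, 9.26 and 7.24 in cortex. The striatal groups did not overlap, whereas in cortex PVCre replicate 3 reached the level of PV-tdTomato replicates 3 and 4. The PVCre line was lower by 1.73 ± 0.52 (SE) in striatum, a 3.32-fold difference (limma, adjusted p = 0.012), and by 1.84 ± 0.52 in cortex, 3.57-fold (adjusted p = 0.0087). Without PVCre cortex replicates 2 and 4, low in Gad1, the cortical difference was -1.08 (adjusted p = 0.16), so that call rested on these arrays.

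Cacna1b encodes the N-type pore, also a release channel. In PV-tdTomato its level was 10.59, 10.65, 9.10 and 9.21 in striatum and 11.69, 11.51, 9.05 and 8.94 in cortex. In PVCre it was 6.76, 7.44, 8.24 and 7.86 in striatum and 7.34, 6.66, 8.18 and 6.59 in cortex. Every PVCre array was below every PV-tdTomato array, although the cortical PV-tdTomato arrays themselves spread from 8.94 to 11.69. The difference was -2.32 ± 0.65 in striatum (4.98-fold, limma adjusted p = 0.0076) and -3.10 ± 0.65 in cortex (8.59-fold, adjusted p = 0.0011).

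Cacna1e encodes the R-type pore, found in dendrites and presynaptic terminals, and had the tightest replicates of the release-related members. In PV-tdTomato its level was 9.42, 9.71, 9.93 and 9.76 in striatum and 9.35, 9.45, 8.83 and 9.05 in cortex. In PVCre it was 6.76, 6.88, 6.78 and 6.19 in striatum and 7.0, 6.49, 6.63 and 6.28 in cortex. All 8 PVCre arrays lay below all 8 PV-tdTomato arrays by more than 1 unit. The striatal PV-tdTomato arrays low in Pvalb were no lower than the others. In cortex those low in Pvalb (8.83 and 9.05) were lower than replicates 1 and 2 (9.35 and 9.45). The PVCre line was lower by 3.05 ± 0.20 in striatum (8.27-fold, limma adjusted p = 9.6e-08) and by 2.57 ± 0.20 in cortex (5.94-fold, adjusted p = 3.8e-07).

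Cacna1c and Cacna1d encode L-type pores; the channel made by Cacna1d opens at more negative voltages. Cacna1c was 9.06, 9.21, 9.42 and 8.90 in PV-tdTomato striatum, 9.82, 10.06, 8.95 and 9.34 in PV-tdTomato cortex, 7.55, 7.58, 7.85 and 7.80 in PVCre striatum and 7.57, 6.95, 8.38 and 6.88 in PVCre cortex. No PVCre array reached a PV-tdTomato array of either region. The difference was -1.45 ± 0.30 in striatum (2.74-fold, limma adjusted p = 0.00098) and -2.10 ± 0.30 in cortex (4.27-fold, adjusted p = 5.6e-05).

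Cacna1d was 9.37, 9.54, 8.79 and 8.67 in PV-tdTomato striatum, 9.61, 9.90, 8.28 and 8.66 in PV-tdTomato cortex, 7.44, 8.19, 8.47 and 8.64 in PVCre striatum and 7.52, 6.52, 8.37 and 6.90 in PVCre cortex. The striatal groups met, with the lowest PV-tdTomato array (8.67) just above the highest PVCre array (8.64), and the cortical groups overlapped at PVCre replicate 3. It was the member that missed the threshold in striatum, where the difference was -0.91 ± 0.43 (95% interval -1.82 to 0.01, limma adjusted p = 0.087). That interval reaches from a large decrease to no difference; with only the 8 striatal arrays in the fit the adjusted p was 0.033, and without the 6 arrays low in Pvalb the difference was -1.27 (adjusted p = 0.013). In cortex the difference was -1.79 ± 0.43 (3.45-fold, adjusted p = 0.003), and -1.17 (adjusted p = 0.065) without PVCre cortex replicates 2 and 4.

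The T-type pores came next. Cacna1g was 10.74, 10.83, 9.96 and 9.47 in PV-tdTomato striatum, 10.70, 10.78, 9.12 and 9.30 in PV-tdTomato cortex, 6.90, 6.87, 7.21 and 7.04 in PVCre striatum and 6.97, 6.74, 7.22 and 6.77 in PVCre cortex. The 8 PVCre arrays lay close together, between 6.74 and 7.22, not far above the highest background probe set (6.1), and the lowest PV-tdTomato array was at 9.12. The difference was -3.24 ± 0.37 in striatum (9.46-fold, limma adjusted p = 8.6e-06) and -3.05 ± 0.37 in cortex (8.26-fold, adjusted p = 1.6e-05).

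Cacna1h was 8.36, 8.44, 8.26 and 7.95 in PV-tdTomato striatum, 9.19, 9.07, 8.66 and 8.22 in PV-tdTomato cortex, 6.91, 7.21, 7.08 and 7.08 in PVCre striatum and 7.56, 7.52, 7.42 and 7.5 in PVCre cortex. The lines did not overlap in either region, and PVCre striatum was the lowest group throughout. The difference was -1.18 ± 0.18 in striatum (2.26-fold, limma adjusted p = 8.8e-05) and -1.29 ± 0.18 in cortex (2.44-fold, adjusted p = 4.4e-05).

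Cacna1i, whose channels inactivate more slowly than the other T-type channels, was 7.95, 8.25, 7.43 and 7.13 in PV-tdTomato striatum, 8.94, 8.33, 6.67 and 6.65 in PV-tdTomato cortex, 6.31, 6.64, 6.60 and 6.38 in PVCre striatum and 6.63, 6.39, 7.40 and 6.27 in PVCre cortex. The striatal groups did not overlap, while cortical PV-tdTomato replicates 3 and 4 lay among the PVCre arrays. The striatal difference was -1.21 ± 0.45 (2.31-fold, limma adjusted p = 0.035). It missed the threshold under quantile normalization (-1.02, adjusted p = 0.062), and also when PVCre striatum replicate 1 (adjusted p = 0.075), 2 (0.053), 3 (0.055) or 4 (0.069) or PV-tdTomato striatum replicate 1 (0.079) or 2 (0.096) was left out. In cortex Cacna1i was the member that missed it, at -0.98 ± 0.45 (95% interval -1.94 to -0.01, adjusted p = 0.081). Without PVCre cortex replicate 3, PV-tdTomato cortex replicate 3 or PV-tdTomato cortex replicate 4 the cortical adjusted p was 0.043, 0.026 and 0.025, and without the 6 arrays low in Pvalb the difference was -1.62 (adjusted p = 0.0023).

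**Figure D2:**
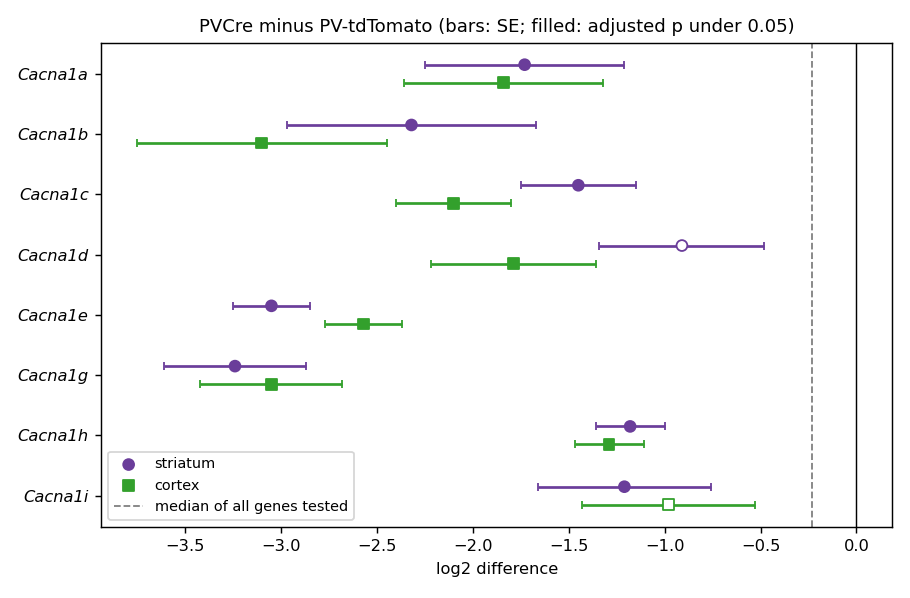
PVCre minus PV-tdTomato difference in log2 level (horizontal axis, ± SE from limma) for each alpha1 gene in striatum and cortex; filled points passed an adjusted p of 0.05 and the dashed line is the median of all genes tested (-0.23). All 16 points lie below that median, and Cacna1e and Cacna1g are far from it in both regions.

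All 8 members had every striatal PVCre array below every striatal PV-tdTomato array, a pattern shown by 33.4% of all genes tested. In cortex 5 of 8 did (Cacna1b, Cacna1c, Cacna1e, Cacna1g and Cacna1h), against 29.9% of all genes. The order of the 4 group means was read from these levels. For Cacna1a, Cacna1e and Cacna1g it ran from PV-tdTomato striatum through PV-tdTomato cortex and PVCre striatum to PVCre cortex. For Cacna1b, Cacna1c and Cacna1d the PV-tdTomato groups changed places, for Cacna1i the PVCre groups did, and for Cacna1h both pairs did. Neighbours of the same line did not differ by limma's test in any member when each line was tested alone, and the steps between lines were tested within a region, as above, not across regions.

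Other measures moved with the line. The median of positive control probe sets minus that of negative ones was 4.53 ± 0.25 (SD, n = 4) and 4.46 ± 0.26 in PV-tdTomato striatum and cortex, and 3.46 ± 0.25 and 3.5 ± 0.35 in PVCre striatum and cortex. All 8 microglial markers were higher in the PVCre line in both regions by limma's test, with median differences of 2.63 and 3.10. Of the 5 measured GABAergic markers, 1 was lower in PVCre striatum by that test and 4 in PVCre cortex, with median differences of -0.60 and -2.78. In striatum 4 of the 5 differences were below 0: Gad2 differed by -1.39 ± 0.83 (adjusted p = 0.17) and Gad1, the exception, by 0.08 ± 1.08 (0.96), while Pvalb differed by 1.51 ± 1.43 (0.39). In cortex Gad1 differed by -2.78 ± 1.08 (adjusted p = 0.043) and Gad2 by -4.54 ± 0.83 (0.00039). Of the 7 parvalbumin interneuron markers, which include Pvalb, 1 was lower and 0 were higher by limma's test in each region. Their differences ran from -1.55 to 1.55 in striatum (median -0.19, 4 of 7 below 0). In cortex they ran from -2.70 to 0.63 (median 0.05, 3 of 7 below 0). Of 7 oligodendrocyte markers 3 were higher in PVCre striatum and 4 in PVCre cortex, and of 3 oligodendrocyte precursor markers 2 and 1 were lower. Of 7 vessel markers (endothelial cells and pericytes), 5 were higher and 1 lower in PVCre striatum (median 1.84) and 1 higher and 1 lower in PVCre cortex. Of 7 markers of striatal projection neurons, 4 were lower in PVCre striatum and 2 in PVCre cortex. Among all genes tested, 35.3% were lower and 18.1% higher in striatum, and 34.6% and 19% in cortex. Counts not above that background were the 1 of 7 parvalbumin interneuron markers lower in each region and the 1 of 5 GABAergic markers lower in striatum. In cortex the same held for the 1 of 3 precursor and 2 of 7 projection neuron markers lower and for the vessel markers. The part of these measures in the alpha1 differences was not tested. Quantile normalization moved the median of all genes to -0.06 in striatum and -0.02 in cortex and the members' medians to -1.21 and -1.58, and all 8 members stayed below 0. Of the genes called in striatum, 3633 were higher and 7088 lower as deposited, and 4413 and 5255 after quantile normalization; in cortex the split was 3809 and 6953, and then 4978 and 5085. Leaving out the 8 arrays high in Xist, a choice made after the data were seen, leaves 1 PVCre array in each region. The cortical one is replicate 2, low in Pvalb (7.93), Gad1 (8.88) and Gad2 (6.79). In cortex that fit thus sets PV-tdTomato against 1 pool poor in these markers. In striatum Cacna1a (-2.09, adjusted p = 0.097), Cacna1b (-2.71, 0.15), Cacna1h (-1.03, 0.13) and Cacna1i (-1.14, 0.39) then missed the threshold, as did Cacna1h in cortex (-1.31, 0.059).

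**Figure D3:**
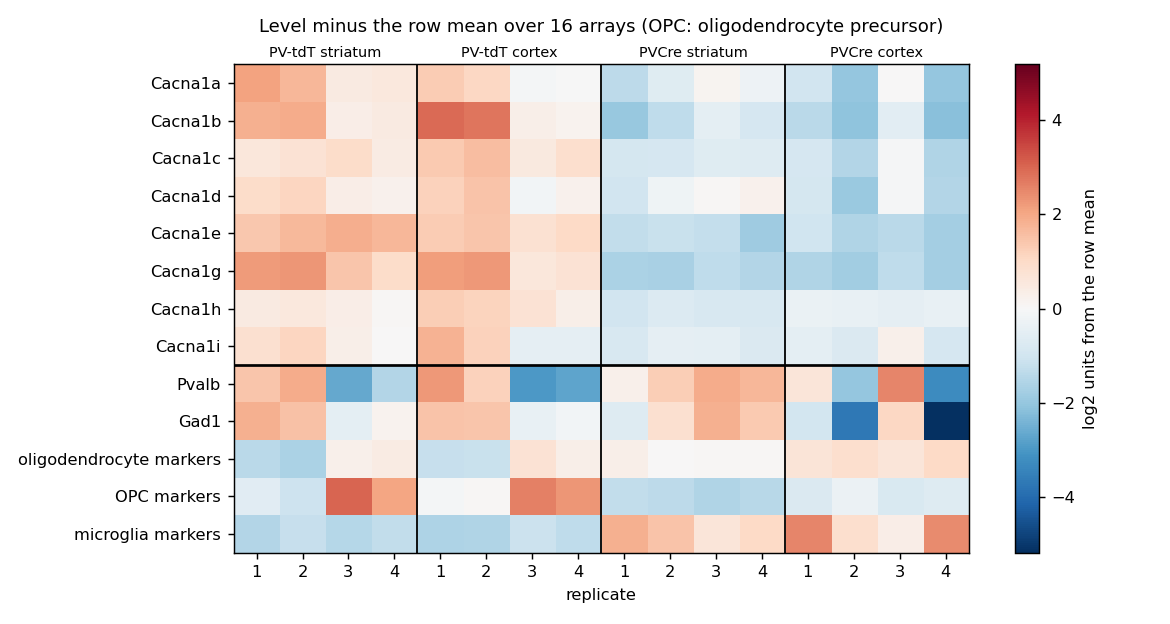
Log2 level minus the gene's mean over 16 arrays (colour) for the alpha1 genes and for Pvalb, Gad1 and the mean of oligodendrocyte, oligodendrocyte precursor and microglial markers (rows), by array (columns, grouped by line and region). For Cacna1b, Cacna1c, Cacna1e, Cacna1g and Cacna1h every PV-tdTomato array lies above the row's mean and every PVCre array below it. For Cacna1a, Cacna1d and Cacna1i PV-tdTomato cortex replicate 3 lies below the mean, and at least 1 PVCre array lies above it. The microglial row is high in the PVCre columns.

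The comparison of the regions asked which genes set striatal interneurons apart from cortical ones. Over both lines, 1 of 8 alpha1 genes differed: Cacna1h, a T-type pore, was lower in striatum by 0.48 ± 0.13, a 1.40-fold difference (limma, adjusted p = 0.044). Among all genes tested 0.956% were lower in striatum and 4.32% differed in either direction. The difference was -0.54 ± 0.18 in PV-tdTomato (adjusted p = 0.23) and -0.43 ± 0.18 in PVCre (adjusted p = 0.25). In PVCre each striatal array (6.91 to 7.21) was below each cortical one (7.42 to 7.56), a pattern that 7.47% of all genes showed. In PV-tdTomato the groups overlapped, since cortical replicate 4 (8.22) lay below 3 of the 4 striatal arrays. The call over both lines stood at its threshold. It was lost when any 1 of 15 arrays was left out (adjusted p = 0.051 to 0.087) and kept without PV-tdTomato cortex replicate 4 (-0.58, adjusted p = 0.0031). With the title's replicate number as a block it was kept (adjusted p = 0.0082), and with a random block by the description's number too (-0.49, adjusted p = 0.0084). In PVCre cortex title and description give different numbers, and which of them marks pools of the same mice is not stated. All-gene counts rose from 869 to 2065 with the first block.

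The 7 other members did not pass the test over both lines. The interval was -0.10 to 1.48 around 0.69 for Cacna1a (adjusted p = 0.39), -0.23 to 1.07 around 0.42 for Cacna1d (0.51) and -0.00 to 0.59 around 0.29 for Cacna1e (0.33). For Cacna1g it was -0.38 to 0.74 (0.76), for Cacna1c -0.53 to 0.38 (0.89), for Cacna1b -0.99 to 0.96 (0.99) and for Cacna1i -0.76 to 0.61 (0.93). The intervals of Cacna1a and Cacna1d include a level 2-fold higher in striatum, and those of the other 5 reach a 2-fold difference in neither direction. The members' median region difference was 0.08. Markers of striatal projection neurons, the main cells of that tissue, moved with region, with 5 of 7 measured markers higher in striatum over both lines and a mean over the list of 7.75 to 9.21 in the striatal arrays and 6.38 to 8.13 in the cortical ones. Their part in the alpha1 values was not tested.

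Within each line, 0 of 8 members passed limma's test for region. In PV-tdTomato 2.36% of all genes were called, and 1606 of the 20094 tested had an unadjusted p under 0.05. Of the members 2 had one: Cacna1e at 0.53 ± 0.20 (unadjusted p = 0.016, limma adjusted p = 0.33) and Cacna1h. In PVCre 3.96% of all genes were called, and 3123 of the 20094 had an unadjusted p under 0.05. There Cacna1h was the only member with one, and Cacna1d was 0.86 ± 0.43 higher in striatum (adjusted p = 0.36). Differences between same-numbered PV-tdTomato pools are given too, although it is not shown that these pools are pairs. Striatum minus cortex in replicates 1 to 4 was -0.83, -0.63, -0.40 and -0.27 for Cacna1h and 0.75, 0.64, 0.55 and 0.60 for Cacna1a. Both had 1 sign in all 4 pairs, as did Cacna1e (0.07 to 1.10) and Cacna1g (0.04 to 0.84), whereas the other 4 members had pairs of both signs. The share of all genes with 1 sign in all 4 pairs was not counted, so no conclusion is drawn from these signs. With the title's number as a replicate block, limma's adjusted p in PV-tdTomato was 0.053 for Cacna1h, 0.23 for Cacna1e, 0.44 for Cacna1a and 0.49 for Cacna1g. With a random block by the description's number Cacna1h passed (-0.54 ± 0.14, adjusted p = 0.047). It also passed in PV-tdTomato without cortex replicate 4 of that line (-0.72, adjusted p = 0.016) and without the 6 arrays low in Pvalb (-0.73, adjusted p = 0.022). The interaction was the region difference in PVCre minus that in PV-tdTomato. By limma it was called for 0 of 8 members and for 0.199% of all genes. An unadjusted p under 0.05 was found for 0 of 8 members and for 1440 of the 20094 genes. The members' interaction values ran from -0.48 ± 0.28 (Cacna1e) to 0.88 ± 0.60 (Cacna1d). No member was thus shown to differ between regions in a way that depended on the line.

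**Figure D4:**
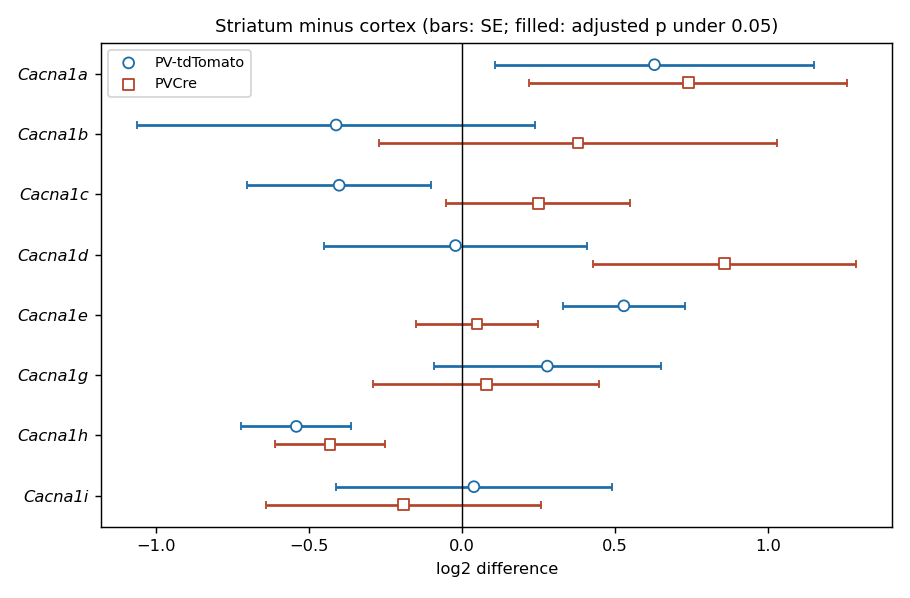
Striatum minus cortex difference in log2 level (horizontal axis, ± SE from limma) for each alpha1 gene in PV-tdTomato and in PVCre. The points lie between -0.54 and 0.86, and Cacna1h is below 0 in both lines.

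Over the arrays within a group, the members other than Cacna1e mostly varied together. After each group's mean was removed, Pearson's r over 16 arrays was 0.33 to 0.93 (median 0.79) for the 21 pairs without Cacna1e and 0.16 to 0.49 (median 0.28) for its 7 pairs. These arrays share the split of the PV-tdTomato replicates, in which replicates 3 and 4 had lower Pvalb and Gad1 and higher oligodendrocyte precursor markers. By the same measure, the genes most like each member were Kif5c (0.989) and Galt (0.987) for Cacna1a, Cit (0.991) and Dzank1 (0.988) for Cacna1b, and Ntrk3 (0.966) and Sntg1 (0.944) for Cacna1c. They were Snhg14 (0.976) and Wnk3 (0.974) for Cacna1d, Mir669c (0.845) and Sntb2 (0.838) for Cacna1e, and Trhde (0.969) and Ppfia3 (0.965) for Cacna1g. For Cacna1h they were Hcrtr2 (0.923) and Hrh2 (0.908), and for Cacna1i Grhl3 (0.971) and Htr2c (0.969). Cacna1e thus had a weaker best match than the other 7 members.

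The partners of the alpha1 subunits were counted on 4 lists. Of 14 tested genes for other alpha1 and auxiliary subunits, 8 were lower and 1 higher in PVCre striatum, with a median difference of -1.08. In PVCre cortex 9 were lower and 1 higher, with a median of -1.29. Among all genes tested, 35.3% were lower and 18.1% higher in striatum, and 34.6% and 19% in cortex. Cacna2d3, an alpha2delta subunit that carries channels to the membrane, was lower by 2.85 ± 0.55 in striatum (limma, adjusted p = 0.00059) and by 3.80 ± 0.55 in cortex (adjusted p = 6.1e-05). Cacnb1, a beta subunit, was lower by 1.33 ± 0.25 (adjusted p = 0.00056) and 1.36 ± 0.25 (0.00049). Cacng7, which belongs to the gamma family that also serves AMPA receptors, was lower by 2.41 ± 0.37 (0.0001) and 1.71 ± 0.37 (0.0015), the latter lost without the 6 arrays low in Pvalb (-1.09, adjusted p = 0.095). The gene that was higher, Cacng1, lay within background in all groups (means 5.31 to 5.80). Between regions, 1 of the 14 differed over both lines, where 4.32% of all genes did. It was Cacna2d1, the alpha2delta subunit bound by gabapentin, lower in striatum by 1.10 ± 0.21, 2.15-fold (limma adjusted p = 0.0053). Its group means were 9.34 ± 0.47 and 10.53 ± 0.18 (SD, n = 4) in PV-tdTomato striatum and cortex, and 8.30 ± 0.27 and 9.31 ± 0.69 in PVCre. Without the 8 arrays high in Xist, the calls for Cacna2d1 between regions (-1.12, adjusted p = 0.17) and for Cacna2d3 (-2.75, 0.075) and Cacnb1 (-1.22, 0.13) in striatum and Cacng7 (-1.68, 0.051) in cortex were lost.

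The background of lower genes was 35.3% of all tested in PVCre striatum and 34.6% in PVCre cortex. Of 15 genes of the presynaptic scaffold, which holds channels beside vesicles, 9 were lower in striatum and 13 in cortex. The median differences were -1.27 and -1.71, and 0 genes were higher. Erc1 was among the lower genes in striatum (-0.76 ± 0.14, limma adjusted p = 0.00035) and in cortex (-1.28 ± 0.14, 4.8e-06). So was Rimbp2, which ties RIM proteins to calcium channels (-1.32 ± 0.28, 0.0011, and -2.25 ± 0.28, 1.7e-05). Between regions over both lines 1 gene of 15 differed, where 4.32% of all genes did. It was Stx1a, a plasma membrane protein of vesicle fusion that binds P/Q-type and N-type channels. Stx1a was lower in striatum by 0.71 ± 0.13 (limma adjusted p = 0.0038). Without the 8 arrays high in Xist its difference was -0.81 and missed the threshold. Without those arrays Erc1 (-0.83, adjusted p = 0.093) and Rimbp2 (-1.35, 0.053) missed the threshold in striatum with differences of similar size.

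Of 8 calcium-activated potassium channel genes, whose channels are opened by the calcium that enters, 3 were lower and 2 higher in PVCre striatum, and 4 lower and 2 higher in PVCre cortex (medians -0.09 and -0.88). In striatum these counts are near the background of 35.3% of all genes lower and 18.1% higher. In cortex that background was 34.6% lower and 19% higher. Kcnn3, a small-conductance channel, was lower in PVCre by 0.78 ± 0.13 in striatum (limma adjusted p = 0.0002) and 1.27 ± 0.13 in cortex (3.4e-06). Between regions 2 of 8 differed, both higher in striatum, as were 3.37% of all genes over both lines. Kcnmb1, a beta subunit of the large-conductance channel, was higher by 2.20 ± 0.14 (adjusted p = 1.1e-07), with 8.11 ± 0.23 against 5.94 ± 0.25 in PV-tdTomato and 8.65 ± 0.43 against 6.42 ± 0.08 in PVCre (SD, n = 4). Its PV-tdTomato cortex level lay within the range of the background probe sets (up to 6.1), so the size of that difference is limited by background. Kcnn3 was higher by 0.79 ± 0.09 (adjusted p = 5.1e-05), with non-overlapping arrays in both lines, and its PVCre cortex mean (6.06) was within that range too. Without the 8 arrays high in Xist, Kcnn3 missed the threshold for region (0.77, adjusted p = 0.07) and for line in striatum (-0.55, adjusted p = 0.087). Markers of blood vessels moved with region too, mainly in PVCre. Of 7 markers of endothelial cells and pericytes, striatum had 2 higher over both lines and 4 higher in PVCre (median difference 1.65). In PV-tdTomato 1 was higher, and 4 of the 7 differences were below 0 (median -0.06). The part of these markers in the potassium channel differences was not tested.

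Of 14 channel regulators and calcium release channels, 5 were lower and 1 higher in PVCre striatum and 6 lower and 1 higher in PVCre cortex (medians -0.80 and -0.90). Against 35.3% and 34.6% of all genes lower, the striatal count is at the background. Nalcn, a sodium leak channel related in structure to the alpha1 subunits, was lower by 1.69 ± 0.26 (limma adjusted p = 0.00012) and 2.57 ± 0.26 (3.6e-06). Gem, a small GTPase that inhibits calcium channels, was the gene that was higher, by 2.05 ± 0.46 (adjusted p = 0.0018) and 2.31 ± 0.46 (0.00074). Its PV-tdTomato means of 5.34 and 5.32 lay within background. Ryr3, an intracellular calcium release channel, was the 1 gene of 14 that differed between regions over both lines, where 4.32% of all genes did. It was higher in striatum by 0.67 ± 0.16 (limma adjusted p = 0.022), with a PVCre cortex mean of 5.96, within background. It missed the threshold without PVCre striatum replicate 2 (0.61, adjusted p = 0.051) and without the 6 arrays low in Pvalb (0.44, adjusted p = 0.2). The call was also lost without PVCre cortex replicates 2 and 4 (0.69, adjusted p = 0.078) and without the 8 arrays high in Xist (0.67).

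**Figure D5:**
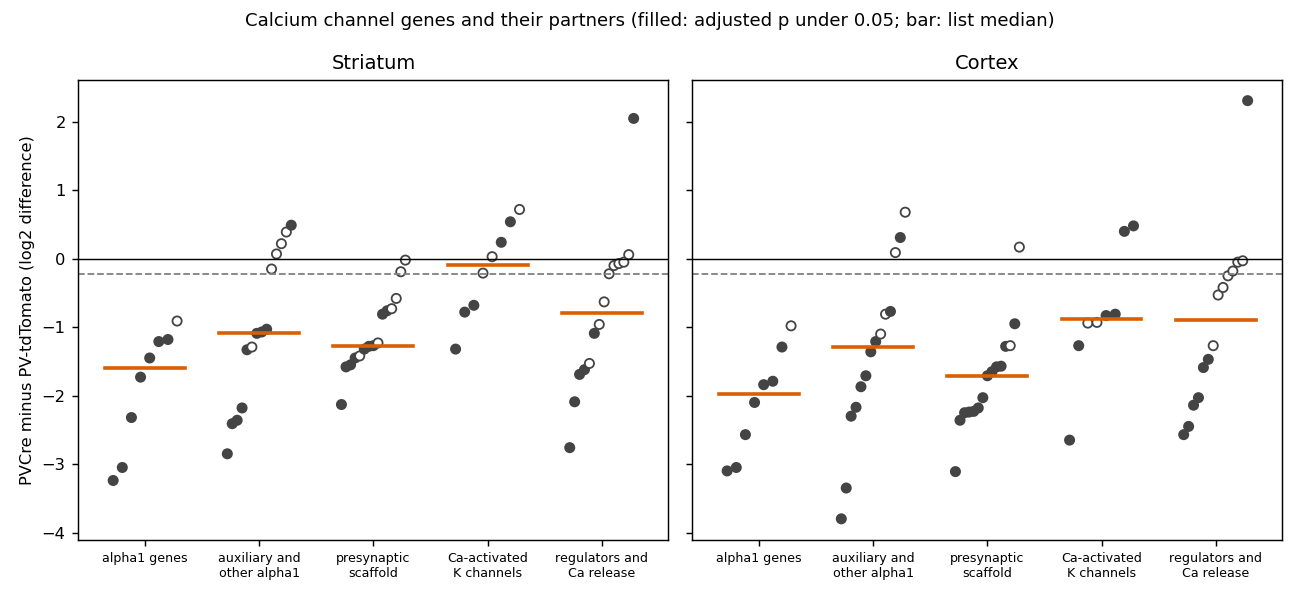
PVCre minus PV-tdTomato difference in log2 level (vertical axis) for the alpha1 genes and the genes of the 4 lists of partners, in striatum and cortex; each point is a gene. The alpha1 genes lie between -3.24 and -0.91 in striatum and between -3.10 and -0.98 in cortex, and each list of partners except the scaffold genes in striatum has genes above 0.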

How the data were processed

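Affymetrix arrays measured total RNA of 16 pools of sorted cells. The deposited values are log2 intensities to which the authors applied RMA (background correction, normalization and summary of probe sets); the submitters' processing notes name Affymetrix Expression Console, and its version is not given in the sources used. Of 65956 transcript clusters, GEO's platform annotation named a single gene for 30604, several for 2146 and none for 33206; 827 symbols were updated through their Entrez numbers. The cluster with the highest mean stood for each of 30142 genes, and the third with the lowest mean (under 5.53) was left out. Background probe sets (23) had means of 2.95 to 6.1. Array medians were 5.92 to 6.1, no 2 arrays were identical, and precision is limited by the number of arrays.

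The test was limma's (version 3.58.1, R 4.3.3; lmFit, then eBayes; all 16 arrays in 1 fit, 1 mean per group), with p adjusted over 20094 genes by Benjamini-Hochberg, threshold 0.05. Errors of differences are SE, intervals are 95%, and errors of levels are SD. The labels do not tie pools to mice, and p-values measure only the spread between pools. On simulated data with 50 genes changed by 1 on the log2 scale, 66% and 64% were recovered for the line effects in striatum and cortex. For the region effect over both lines 68% were recovered. The simulation changed far fewer genes than the line effects called (10721 and 10762) and drew each gene's noise independently. These shares therefore do not carry over to the line tests. Same-numbered PV-tdTomato pools of the 2 regions correlated in all 4 pairs (r = 0.582 to 0.758 after group means were removed), and PVCre pools (-0.293 to 0.691) did not. Differently numbered PV-tdTomato pools correlated too. Striatal replicates 2, 4, 3 and 1 gave r = 0.667, 0.645, 0.561 and 0.553 with cortical replicates 1, 3, 4 and 2. The correlation follows the split of replicates 1 and 2 from 3 and 4, so it cannot tell whether same-numbered pools are pairs. The fit behind the reported values has no block. The replicate block, an alternative, was set within each line for the region effects and the interaction. For the line effects it grouped same-numbered pools across the lines, and the labels state no such pairing.

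The members, the 4 lists of partners and the marker lists were chosen with earlier results of these data known. The named genes were the 8 members, list genes past the threshold for region, at most the 4 list genes with the smallest p per direction for a line effect, the 2 genes most like each member, and Pvalb, Gad1, Gad2 and Slc17a7. The partner lists had 18, 16, 8 and 22 genes, of which 14, 15, 8 and 14 were tested. The alternatives were no filter, every single-gene cluster, quantile normalization, median centring, a trended robust prior, the title's number as a replicate block, a random block by the number in the description (which differs from the title's in PVCre cortex), only the arrays compared, and sets of arrays left out.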

Additional observations from a re-analysis of the deposited data

How the results depend on the processing

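Over all alternatives, 1223 of 1264 member values kept their side of the threshold, 32 lost the call and 9 gained it. No called value changed sign, but 66 of the 1223, none of them called, did. Of 2036 values of list genes, 1857 kept their side and 179 lost the call. For region over both lines, 1 member was called, and 0 without the filter, without PVCre cortex replicates 2 and 4 (adjusted p = 0.16) and without the 8 arrays high in Xist (0.54); leaving out single arrays gave 0 to 1. In PV-tdTomato 0 members were called, and 1 (Cacna1h) with the random block (adjusted p = 0.047) and without the 6 arrays low in Pvalb; single arrays left out gave 0 to 1. For the line effect in striatum 7 were called, and 3 without the arrays high in Xist. The replicate block changed no member's call in any comparison. Counts over all genes for region over both lines moved from 869 to 1444 with the random block, 2065 with the replicate block, 1602 without the 6 arrays low in Pvalb and 224 without those high in Xist. In PV-tdTomato they moved from 474 to 714, 1040 and 156 under the random block and without these 2 sets of arrays, and to 283 with only the arrays compared. In PVCre they moved from 796 to 1284 (random block), 2088 (replicate block), 318 (without cortex replicates 2 and 4) and 94 (without arrays high in Xist), and single arrays left out gave 511 to 822, the lowest without cortex replicate 2. The line effects went from 10721 to 3655 in striatum and from 10762 to 6060 in cortex without the arrays high in Xist. The interaction went from 40 to 103 (random block), 130 (replicate block), 153 (without the 6 arrays), 6 (without PVCre cortex replicates 2 and 4) and 0 by limma without the arrays high in Xist, where 1502 genes had an unadjusted p under 0.05; single arrays left out gave 21 to 69. Leaving out the arrays high in Xist leaves 1 PVCre array per region, assumed to vary like the others. In cortex that array is replicate 2, low in Pvalb, Gad1 and Gad2. Other causes of these moves were not tested. Each member had 1 cluster, so no other cluster could be tried, and for region over both lines the arrays compared are all 16. Levels near 6.1, as those of Cacna1i and Cacna1e in PVCre, are close to background and limit what can be resolved there.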
